A study of Mus musculus with 24 samples.

Results

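The 8 genes described here mark the epithelial and the mesenchymal state of a cell and its contractile machinery: Cdh1, Epcam, Cdh2, Vim, Fn1, Tagln, Acta2 and Cnn1. They were taken by gene symbol from the 37310 gene entries of each of 2 deposited expression tables. All 8 had 1 row in each table and passed the filter on low values in both (at least 0.5 CPM in at least 3 samples of the table, CPM being the reads of a gene scaled to the depth of its library). The samples were mouse embryonic stem (ES) cells grown without feeder cells on gelatin, in serum with the cytokine LIF, and total RNA depleted of ribosomal RNA was sequenced. The first table holds wild-type cells (WT), cells lacking Smchd1 (Smchd1 KO), cells lacking Dux (Dux KO) and cells lacking both (Double KO). The second holds cells lacking Tet1, Tet2 and Tet3 (Tet TKO) and cells lacking Smchd1 as well as these 3 genes (quad KO), so that both genotypes of that table carry the Tet knockout. Each genotype had 3 replicates, called biological in the study design, and the labels do not say whether they were separate clones. If they were not, the p-values below measure the spread between cultures or libraries of 1 clone only.

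ES cells are epithelial in character: they adhere through E-cadherin, the product of Cdh1, and carry the adhesion molecule encoded by Epcam on their surface. In an epithelial-to-mesenchymal transition a cell lowers these genes and raises N-cadherin (Cdh2), the intermediate filament protein vimentin (Vim) and the matrix protein fibronectin (Fn1). Transgelin (Tagln), smooth muscle alpha-actin (Acta2) and calponin 1 (Cnn1) belong to the actin cytoskeleton of smooth muscle cells and myofibroblasts, and their genes are classic targets of serum response factor (SRF) and its myocardin-family partners. SMCHD1 is a chromatin protein with roles in gene silencing, DUX is a transcription factor of the early embryo, and the TET enzymes oxidise 5-methylcytosine.

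Promoters of 4 of the 8 genes (Vim, Cnn1, Epcam and Acta2) were in the RefSeq promoter table for build GRCm38.p6, each from 250 bases before the transcription start to 50 after it. Acta2 and Cnn1 are shown because their RNA varied together with that of Tagln in the first table. Epcam is shown because it is an epithelial gene that rose in quad KO. Acta2 lies at chr19:34255324-34255623 on the minus strand, Cnn1 at chr9:22099003-22099302 and Epcam at chr17:87635729-87636028, both on the plus strand. Capitals mark a near-match to the CArG box bound by SRF in Acta2 and the sequence CACCTG, read on either strand, in Epcam. CACCTG is the E-box form bound by the Snail and Zeb repressors.
Acta2: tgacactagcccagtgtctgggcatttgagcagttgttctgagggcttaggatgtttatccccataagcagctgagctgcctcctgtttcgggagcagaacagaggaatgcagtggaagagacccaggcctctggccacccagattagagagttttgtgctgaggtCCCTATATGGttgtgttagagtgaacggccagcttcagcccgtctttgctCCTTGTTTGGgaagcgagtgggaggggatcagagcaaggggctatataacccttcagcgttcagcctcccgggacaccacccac
Cnn1: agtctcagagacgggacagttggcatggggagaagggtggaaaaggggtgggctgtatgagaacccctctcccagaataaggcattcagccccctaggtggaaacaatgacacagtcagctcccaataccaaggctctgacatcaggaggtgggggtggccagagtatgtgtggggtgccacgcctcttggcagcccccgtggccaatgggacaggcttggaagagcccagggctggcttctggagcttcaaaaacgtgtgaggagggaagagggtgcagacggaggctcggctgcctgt
Epcam: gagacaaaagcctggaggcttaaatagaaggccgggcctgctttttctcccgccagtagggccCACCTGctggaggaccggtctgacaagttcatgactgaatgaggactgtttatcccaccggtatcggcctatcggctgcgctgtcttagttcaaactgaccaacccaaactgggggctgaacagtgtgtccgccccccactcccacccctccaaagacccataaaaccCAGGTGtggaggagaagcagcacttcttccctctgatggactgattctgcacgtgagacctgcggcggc

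The CArG box (CC, then only A or T bases, then GG) was searched on both strands and was in none of the 4 windows, against 1.63% of the 32851 promoters in the table. With 1 of the inner bases left free, a rule chosen after the Acta2 sequence had been seen, Acta2 held 2 matches, which begin 84 and 34 bases before the start. The share of all promoters with such a match was 9.98%. The Cnn1, Vim and Epcam windows held no match to either form. Epcam held CACCTG on one strand 187 bases and on the other 19 bases before the start, and 20.2% of all promoters held it at least once. These are matches of letters and were not tested for binding.

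Gene reads per library ran from 11399800 to 74448400 in the first table and from 27325300 to 34590000 in the second, and every member had reads in every sample, at the fewest 4 for Acta2 in Dux KO replicate 1. The targeted gene Smchd1 averaged 206 ± 2.28 CPM (SD, n = 3 here and below) in WT, 60.4 ± 15.3 CPM after its own knockout and 79.0 ± 8.48 CPM in the Double KO. In the second table it averaged 155 ± 5.46 CPM before and 23.4 ± 14.7 CPM after its knockout. The row named Dux had 20 reads over all WT libraries and 6 over all Dux KO libraries, which were sequenced less deeply. Scaled to depth, WT averaged 0.0983 ± 0.0517 CPM for this row, while the mean of Dux KO was 0.149 ± 0.258 CPM. The scaled level was therefore not lower after the Dux knockout, and a row with so few reads cannot check that label. The median SD of log2 values between replicates, over all genes tested, was 0.05 in WT and 0.06 in Tet TKO, 0.12 in Smchd1 KO and 0.13 in quad KO, and 0.30 in Dux KO and 0.31 in Double KO, so the genotypes of a fit did not share 1 spread. All 10 ES cell markers (such as Pou5f1, Sox2 and Nanog) were at 0.5 CPM or more in every sample, with a summed level from 2598 CPM in the lowest Double KO sample to 5133 CPM in the highest Smchd1 KO sample. Some samples differed over whole chromosomes from the mean of WT: the median log2 difference over chromosome 6 was -0.57 in Smchd1 KO replicate 2, -0.57 in Dux KO replicate 2 and -0.58 in Double KO replicate 3, over chromosome 8 it was -0.55 in Dux KO replicate 3, and over chromosome 1 it was 0.46 in Double KO replicate 3. All 3 quad KO samples differed from the mean of Tet TKO over chromosome 6 (-0.24 to -0.32), chromosome 8 (-0.20 to -0.31) and the X chromosome (-0.22 to -0.27). The replicate numbers of Smchd1 KO are those given here, since its columns carry none that match a label.

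Between quad KO and Tet TKO, 6 of the 8 genes rose and none fell at an adjusted p under 0.05 (limma, Benjamini-Hochberg over all genes). Over all 14920 genes tested the share called in either direction was 37.7%, and the share called higher was 17.1%. The 6 were Tagln, Cnn1, Acta2, Cdh2, Fn1 and Epcam, and in each the lowest quad KO sample lay above the highest Tet TKO sample, which held in this direction for 25.1% of all genes tested (53.3% in either direction). Cdh1 and Vim were not called, and the same 6 genes were past an unadjusted p of 0.05, as were 47.8% of all genes. The median log2 change was 0.64 over the 8 genes and -0.01 over all genes tested. In bulk RNA, more cells of a type and more RNA per cell cannot be told apart.

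In the first table the calls were few. Double KO against Smchd1 KO gave 2 of 8, Cdh2 and Fn1, both higher, where 4.38% of the 16200 genes tested were called and 1.4% were called higher. None of the 8 was called between Smchd1 KO and WT (0.889% of genes called), Dux KO and WT (3.98%), Double KO and WT (1.57%) or Double KO and Dux KO (0.0123%), nor in the interaction (0.512%), which is the effect of Smchd1 loss in Dux KO cells minus that in WT cells. At an unadjusted p under 0.05 the counts were 0 of 8 for Smchd1 KO against WT (16.4% of all genes), 3 for Dux KO against WT (26.0%), 2 for Double KO against WT (23.1%), 5 for Double KO against Dux KO (9.77%) and 2 for the interaction (17.4%); for Double KO against Smchd1 KO it was 3 (25.1%). In the same order, edgeR on reads recovered from the CPM values called 0, 0, 1, 0 and 0 members (1.42%, 5.76%, 3.43%, 0.0123% and 0.0432% of all genes). DESeq2 called 0, 2, 2, 2 and 2 (6.68%, 16.1%, 12.4%, 1.36% and 5.84%). Groups without overlap were 3 of 8 for Smchd1 KO against WT (57.7% of all genes), 3 for Dux KO against WT (39.6%), 4 for Double KO against WT (36.2%), 2 for Double KO against Dux KO (6.15%) and 2 for Double KO against Smchd1 KO (29.7%). The median log2 change over the 8 genes was -0.08 in Smchd1 KO against WT, -0.71 in Dux KO against WT, 0.64 in Double KO against WT, 1.15 in Double KO against Dux KO and 0.74 in Double KO against Smchd1 KO, and over all genes tested it lay between -0.04 and 0.00 in these. Comparisons that share a genotype share its samples.

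**Figure D1:**
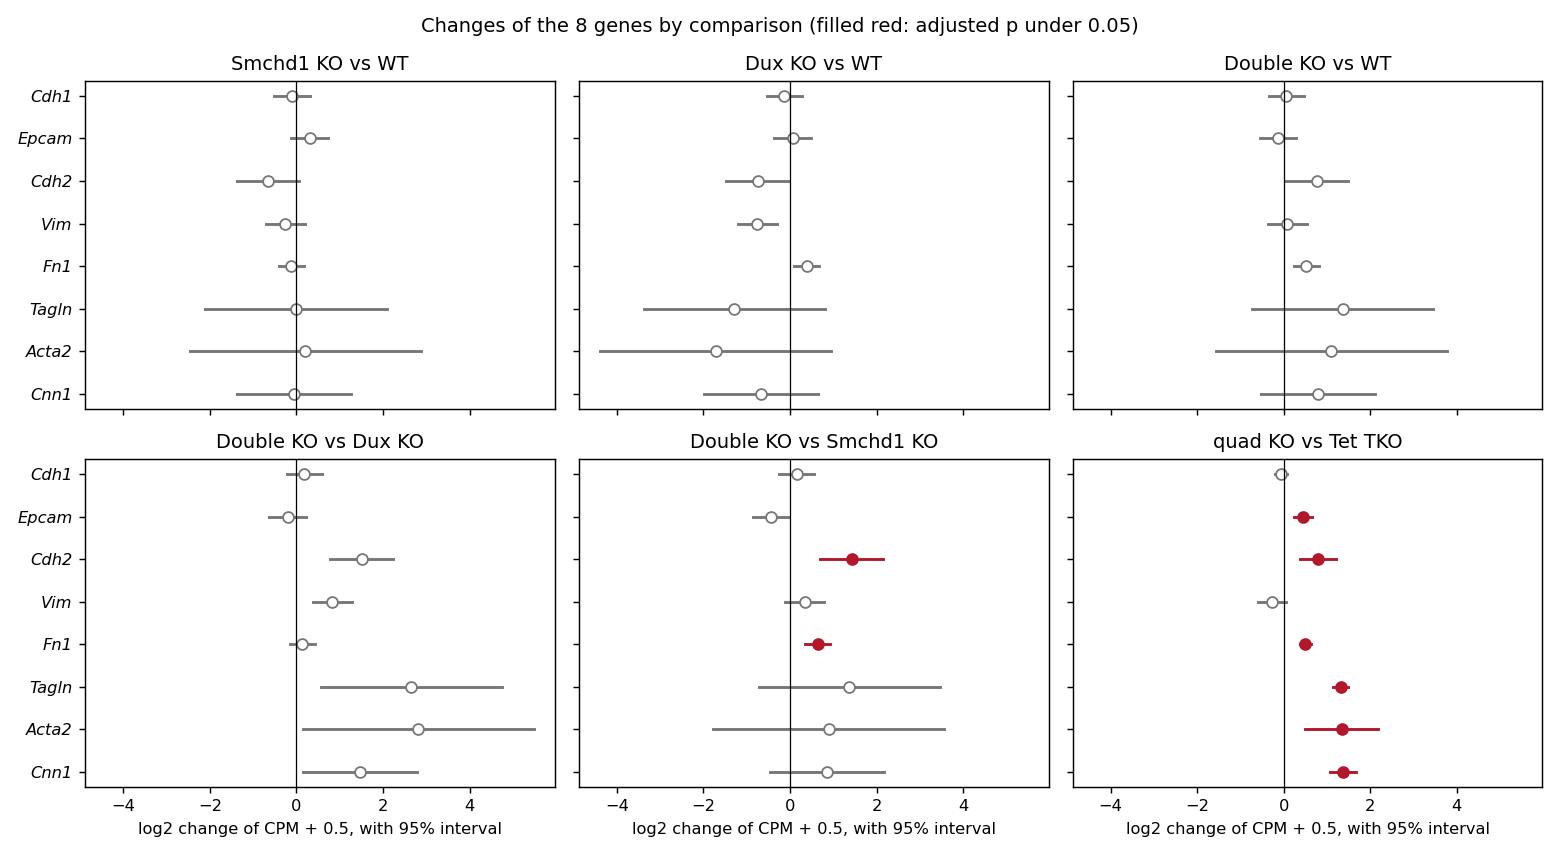
Log2 change of each of the 8 genes, on the scale of CPM + 0.5, with its 95% interval from limma, in 6 comparisons. Filled red points passed at an adjusted p under 0.05: 6 genes in quad KO against Tet TKO and 2 in Double KO against Smchd1 KO. The intervals of Tagln, Acta2 and Cnn1 are much wider in the first table than in the second.

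Tagln (ENSMUSG00000032085.4, chromosome 9) encodes transgelin, an actin-binding protein of smooth muscle. It was at 10.3, 10.3 and 10.1 CPM in Tet TKO and at 24.9, 28.5 and 25.4 CPM in quad KO. The 3 quad KO samples all lay above the Tet TKO samples, and Tagln rose by 1.32 on the log2 scale (SE 0.08, 2.49-fold, adjusted p = 4.73e-05). Cnn1 (ENSMUSG00000001349.4, also on chromosome 9), which encodes the actin-binding protein calponin 1, was at 3.80, 3.46 and 3.33 CPM in Tet TKO and at 8.22, 10.6 and 11.1 CPM in quad KO. It rose by 1.37 (SE 0.13, 2.59-fold, adjusted p = 0.000269), again without overlap. Acta2 (ENSMUSG00000035783.8, chromosome 19) was the lowest of the 3 in this table, at 0.916, 0.864 and 0.897 CPM in Tet TKO and 1.50, 2.83 and 5.99 CPM in quad KO. These levels rest on 25 to 31 reads a library in Tet TKO and on 45, 80 and 167 reads in quad KO. Acta2 rose by 1.33 (SE 0.37, 2.52-fold on the scale of CPM + 0.5, adjusted p = 0.024), and the spread in quad KO was 3.99-fold between the lowest and the highest sample. Leaving out any 1 Tet TKO sample ended this call, at an adjusted p of 0.0752 to 0.0753.

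In the first table the same genes were nearly level in WT and split among the replicates of the knockouts. Tagln was at 22.2, 23.9 and 22.6 CPM in WT, and at 2.54, 3.09 and 79.8 CPM in Dux KO. Acta2 was at 14.9, 14.1 and 14.5 CPM in WT, and at 0.298, 1.03 and 77.9 CPM in Dux KO, on 4, 15 and 1188 reads. Cnn1 was at 2.92, 2.49 and 2.91 CPM in WT, and at 0.597, 0.755 and 5.77 CPM in Dux KO. For each of the 3 genes, Dux KO replicates 1 and 2 lay below every WT sample and replicate 3 above every WT sample. The spread was 261-fold for Acta2 and 31.5-fold for Tagln between the lowest and the highest Dux KO sample. The SD of log2 values in Dux KO was 3.58 for Acta2, 2.66 for Tagln and 1.40 for Cnn1, against a median of 0.30 over all genes tested.

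**Figure D2:**
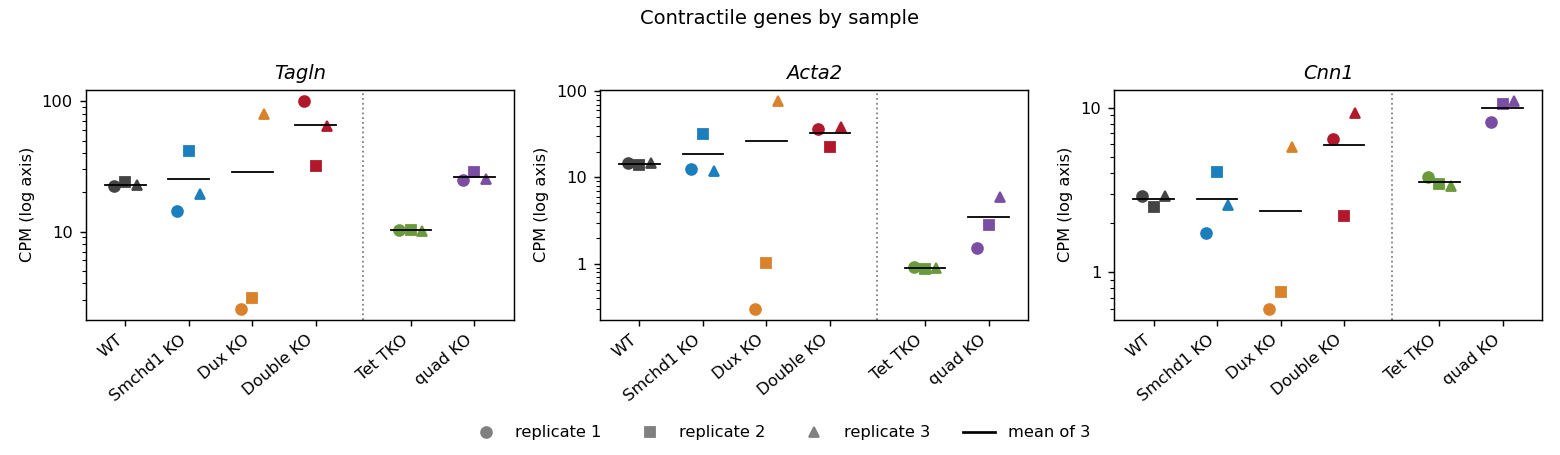
CPM of Tagln, Acta2 and Cnn1 in each of the 18 biological samples, on log axes. Points are replicates by number, lines are means of 3, and the dotted line parts the 2 tables, which were scaled separately. Dux KO replicates 1 and 2 sit below WT and replicate 3 above it in each panel, at 0.298, 1.03 and 77.9 CPM for Acta2.

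Smchd1 KO was split in the same genes, with less distance between its samples. Tagln was at 14.4, 41.5 and 19.5 CPM in Smchd1 KO, Acta2 at 12.5, 32.3 and 11.8 CPM and Cnn1 at 1.74, 4.06 and 2.56 CPM. Replicate 2 was the highest for each and the only one above every WT sample. It was at least 2-fold above the next replicate for Tagln and Acta2, a step that 0.272% of all genes tested showed in that sample. The 2 sequencing runs of each WT and Smchd1 KO sample differed by at most 1.12-fold for Tagln, 1.13-fold for Acta2 and 1.41-fold for Cnn1; for Smchd1 KO the runs were joined by their similarity, so this closeness is in part built in. Double KO was the highest genotype by mean CPM for all 3 genes: Tagln was at 101, 32.1 and 64.9 CPM, Acta2 at 36.4, 22.8 and 38.2 CPM and Cnn1 at 6.44, 2.20 and 9.27 CPM. All Double KO samples lay above all WT samples for Tagln and Acta2, while replicate 2 lay below WT for Cnn1. Some marker sums of other cell types were higher there too. The sum of 10 fibroblast markers was 31.4 to 58.4 CPM in Double KO and 20.5 to 22.6 CPM in WT. Within it Col1a1 was at 12.7 to 18.7 against 4.84 to 5.31 CPM. Thy1 was lower in Double KO, at 2.60 to 4.40 against 6.56 to 7.17 CPM, and Lum and Dcn were at 0 in all Double KO samples. The sum of 7 trophoblast markers was 16.7 to 82.5 against 9.09 to 10.1 CPM, and that of 10 ES cell markers 2598 to 3960 against 4592 to 4681 CPM (groups of 3, none overlapping). Of the trophoblast list, the keratin gene Krt7 was at 9.03 to 43.1 against 2.06 to 2.19 CPM. Ascl2 of that list was lower in Double KO, at 2.02 to 2.41 against 2.85 to 3.60 CPM. The sum of 7 smooth muscle markers overlapped, at 56.4 to 85.6 against 58.0 to 62.7 CPM. The part of these markers in the Double KO values was not tested.

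None of the 3 contractile genes passed in any comparison of the first table. In Dux KO against WT the log2 change was -1.29 for Tagln (95% interval -3.38 to 0.80), -1.71 for Acta2 (-4.38 to 0.95) and -0.67 for Cnn1 (-1.99 to 0.65). The mean CPM pointed the other way for Tagln (28.5 in Dux KO, 22.9 in WT) and Acta2 (26.4 and 14.5), since replicate 3 carries the mean. Without Dux KO replicate 3, an alternative with 2 Dux KO samples, Tagln fell by 2.82 (adjusted p = 0.00666), Acta2 by 3.76 (adjusted p = 0.00249) and Cnn1 by 1.48 (adjusted p = 0.0493), and 5 of the 8 genes were called where 17.2% of all genes were. Replicate 3 stood out by these same genes, so the p-values without it are not separate support. Leaving out other samples 1 at a time, the changes shrank to as little as -0.46, -0.45 and -0.22. Without Dux KO replicate 1 or replicate 2, 0 of the 8 were called. In Double KO against Dux KO the log2 change was 2.65 for Tagln, 2.81 for Acta2 and 1.47 for Cnn1 (adjusted p = 0.38 to 0.477 with all samples). Without Dux KO replicate 3, Tagln rose by 4.19 (adjusted p = 0.0103) and Acta2 by 4.86 (adjusted p = 0.00298), Cnn1 stood at 2.27 (adjusted p = 0.0509), and 2 of 8 genes were called against 0.796% of all genes. The same limit holds for these p-values. Without Dux KO replicate 1 or replicate 2, 0 of the 8 were called in Double KO against Dux KO.

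Dux KO replicate 3 differed from replicates 1 and 2 in other measures as well. Of the 28 tested genes of a list of contractile and actin-binding genes, which holds none of the 8, it was the highest Dux KO sample in 25 (89.3%), against 38.0% of all genes tested, and by at least 2-fold in 10 (35.7%), against 2.49%. The same 2-fold step held in 63.6% of an SRF list, 29.6% of a mesenchymal and matrix list and 16.7% of an epithelial list. It held in 0 of 8 transcription factors of the epithelial-to-mesenchymal transition and in 1 of 15 TGF-beta pathway genes (6.67%). Other samples were skewed too: Double KO replicate 1 was highest in 20 of the 28 contractile genes (17.9% by at least 2-fold, against 2.44% of all genes). Quad KO replicate 2 was highest in 21 of 26, with 0 by 2-fold. In Dux KO replicate 3 the summed level of 10 extraembryonic endoderm markers was 188 CPM, against 82.6 and 41.5 CPM in replicates 1 and 2, and that of 7 smooth muscle markers was 90.4 CPM against 57.5 and 65.3 CPM. Within that list Dux KO samples ran from 0.343 to 0.787 CPM for the myosin gene Myh11, a defining marker, from 0.895 to 6.23 CPM for Lmod1 and from 9.77 to 32.9 CPM for Des. Smtn, the highest gene of the smooth muscle list, ran only from 43.5 to 48.2 CPM. Synpo2 of the same list went the other way, from 0.721 to 2.24 CPM with its lowest value in replicate 3. The summed level of 10 fibroblast markers was 34.9 CPM in replicate 3 against 11.8 and 17.5 CPM, with the defining markers Lum, Dcn and Fap at 0 in all 3 Dux KO samples (at most 0.0119, 0.212 and 0 CPM in WT). The collagen genes of that list varied within Dux KO, Col1a1 from 1.79 to 10.6 CPM and Col1a2 from 0.149 to 5.57 CPM, as did Postn, from 0 to 1.25 CPM. In Smchd1 KO replicate 2, where Tagln, Acta2 and Cnn1 were highest, the fibroblast sum was 58.1 CPM against 40.4 and 29.8 CPM, but the endoderm sum was the lowest of its group, at 48.6 CPM against 89.0 and 242 CPM. The smooth muscle sum of that sample was also the lowest of its group, at 73.4 CPM against 76.6 and 81.7 CPM. Of the 28 list genes it was the highest Smchd1 KO sample in 13 (46.4%, against 40.9% of all genes tested), with 0 by at least 2-fold. The part of these markers in the contractile gene values was not tested.

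Across the 12 biological samples of the first table the contractile genes followed each other closely. Pearson's r of log2 values was 0.97 for Tagln and Acta2, 0.95 for Tagln and Cnn1 and 0.90 for Acta2 and Cnn1, and with the genotype means removed it was 0.97, 0.92 and 0.88. Over the 6 samples of the second table it was 0.81, 0.99 and 0.89, and with the genotype means removed 0.07, 0.52 and 0.84. Values of 1 sample share a library and its depth, so these are descriptions. Vim followed them less closely, with r of 0.77 to Tagln over the 12 samples, and Fn1 did not (r = -0.04). With the genotype means removed, Cdh1 ran against them (r = -0.67 to Tagln and -0.78 to Acta2), and the chromosome 8 shift of Dux KO replicate 3, given with Cdh1, is among these points.

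The 2 genes outside the 8 whose log2 values were most like Tagln, among 11019 with a mean of at least 5 CPM, were Thbs1 (r = 0.98 over 12 samples, 0.95 over the 6 of the second table) and Acta1 (0.96 and 0.73). Thbs1 encodes the matrix protein thrombospondin 1 and Acta1 skeletal muscle actin. Thbs1 was also the next most like gene for Acta2 (0.94 and 0.80), after Efha1 (0.94 and 0.67), and for Cnn1 (0.93 and 0.94), after Ddb1 (0.93 and 0.84). For the other members the likeness in the first table often did not carry to the second: Cdh1 with Atxn2l had 0.96 and 0.20, Epcam with Slc13a5 0.93 and -0.85, Cdh2 with Gltpd1 0.96 and -0.47, Vim with Pkdcc 0.90 and 0.29, and Fn1 with C030039L03Rik 0.95 and -0.96. The next gene was Cc2d1a for Cdh1 (0.94 and 0.74), Ephb3 for Epcam (0.91 and 0.81), Pon2 for Cdh2 (0.95 and -0.99), Obsl1 for Vim (0.85 and -0.97) and Mgat5 for Fn1 (0.95 and 0.82).

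Cdh1 (ENSMUSG00000000303.6, chromosome 8) is the gene of E-cadherin, which holds epithelial and ES cells together. It was at 770, 775 and 763 CPM in WT and, in Smchd1 KO, at 707, 693 and 752 CPM. In Dux KO it was at 850, 785 and 520 CPM, and in Double KO at 980, 805 and 649 CPM. It was not called in any comparison, with log2 changes from -0.13 to 0.19 between genotypes of the first table. All Smchd1 KO samples lay below all WT samples, by a log2 change of -0.10 (adjusted p = 0.823). Cdh1 was at 691, 676 and 719 CPM in Tet TKO and 696, 708 and 607 CPM in quad KO, a log2 change of -0.06 (95% interval -0.20 to 0.09, adjusted p = 0.51). The low value of Dux KO replicate 3 was -0.57 from the WT mean on the log2 scale, where the median of chromosome 8 in that sample was -0.55. In quad KO the median of chromosome 8 was -0.20, -0.26 and -0.31, and Cdh1 stood 0.20, 0.29 and 0.12 above it. With each chromosome's median subtracted, Cdh1 was 0.20 higher in quad KO (adjusted p = 0.0139) and 0.14 higher in Dux KO than WT (adjusted p = 0.55), so its direction depends on this centring in both comparisons.

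**Figure D3:**
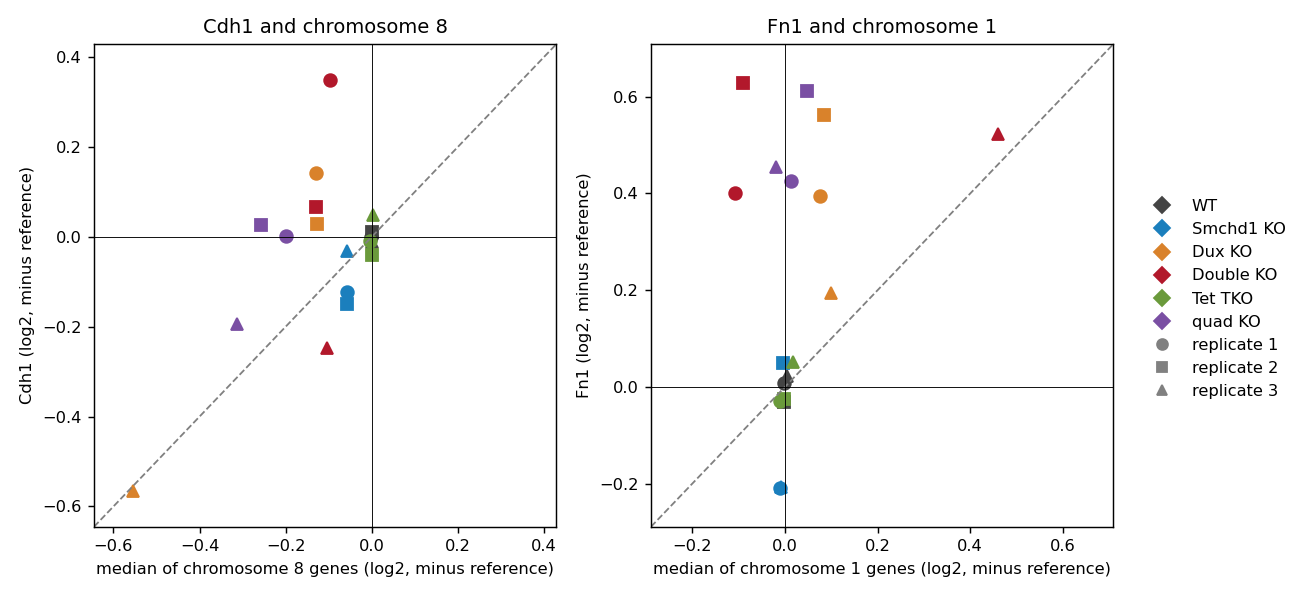
Log2 value of Cdh1 and of Fn1 in each biological sample, minus the mean of WT (first table) or Tet TKO (second table), against the median of the same difference over the genes of their chromosome with a mean of at least 5 CPM. On the dashed line both are equal, as for Cdh1 in Dux KO replicate 3 at -0.57 and -0.55. Fn1 was at 0.52 in Double KO replicate 3, beside a chromosome median of 0.46.

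Epcam (ENSMUSG00000045394.8, chromosome 17), whose product is a cell adhesion molecule of epithelia and ES cells, was at 200.1, 198 and 200.5 CPM in Tet TKO and at 274, 314 and 237 CPM in quad KO. No quad KO sample overlapped Tet TKO, and Epcam rose by 0.45 (SE 0.09, 1.37-fold, adjusted p = 0.00618). In the first table it was at 172, 175 and 176 CPM in WT and, in Smchd1 KO, at 205, 198 and 248 CPM. In Dux KO it was at 180, 166 and 203 CPM, and in Double KO at 203, 182 and 108 CPM. Every Smchd1 KO sample was above every WT sample, with a log2 change of 0.31 (95% interval -0.12 to 0.73, adjusted p = 0.457). A fit of these 2 genotypes alone, whose replicates are closer to each other than those of Dux KO and Double KO, gave the same change at an adjusted p of 0.0215, in a fit that called 42.3% of all genes. Double KO against Smchd1 KO gave -0.44 (adjusted p = 0.184), with the lowest value in Double KO replicate 3.

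Cdh2 (ENSMUSG00000024304.8, chromosome 18) encodes N-cadherin, the cadherin of neural and mesenchymal cells. It was at 10.7, 11.1 and 10.6 CPM in Tet TKO and at 19.9, 14.0 and 24.7 CPM in quad KO, without overlap, and rose by 0.79 (SE 0.18, 1.73-fold, adjusted p = 0.0108). In the first table it was at 7.16, 6.93 and 7.05 CPM in WT and, in Smchd1 KO, at 4.21, 4.50 and 4.17 CPM. In Dux KO it was at 5.37, 2.88 and 4.06 CPM, and in Double KO at 23.9, 7.95 and 9.74 CPM. All samples of both single knockouts lay below WT, and all Double KO samples lay above WT. Double KO replicate 1 was more than 2-fold above the next sample of its group. Cdh2 rose in Double KO against Smchd1 KO by 1.42 (SE 0.33, 2.68-fold, adjusted p = 0.0379), but the call was lost when any of 7 of the 12 samples was left out: Double KO replicate 1 (0.96, adjusted p = 0.0789), any WT sample (0.0703 to 0.0718) or any Smchd1 KO sample (0.0945 to 0.157). Without a filter on low values it was also lost (adjusted p = 0.0649). Against Dux KO the change was 1.51 (95% interval 0.79 to 2.24, adjusted p = 0.178) and against WT 0.77 (0.04 to 1.49, adjusted p = 0.195) by limma. DESeq2 called both, against Dux KO at 1.78 (adjusted p = 0.00162) and against WT at an adjusted p of 0.0382. The single knockouts stood at -0.66 (Smchd1 KO, adjusted p = 0.346) and -0.75 (Dux KO, adjusted p = 0.183) from WT. A limma fit of Smchd1 KO and WT alone gave the same -0.66 at an adjusted p of 0.00109, and called 42.3% of all genes. The interaction was 2.17 (95% interval 1.14 to 3.20) and had an unadjusted p of 0.000598, but its adjusted p was 0.0712 by limma. DESeq2 called it (2.51, adjusted p = 0.00043), and limma did without Dux KO replicate 1 (2.36, adjusted p = 0.0299) or without Double KO replicate 2 (2.47, adjusted p = 0.0159).

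**Figure D4:**
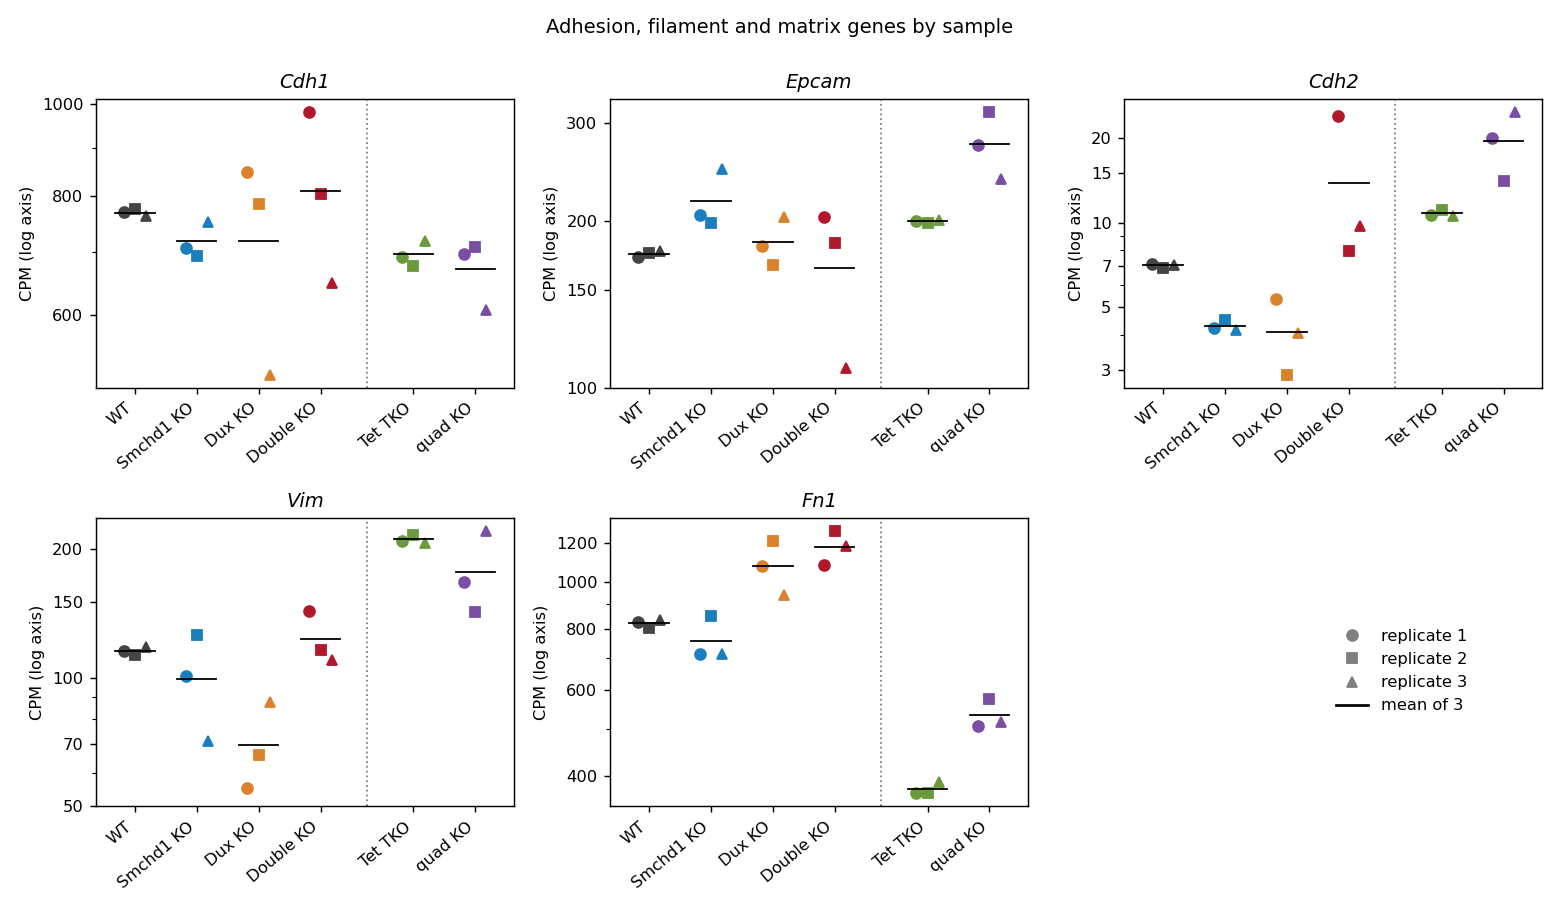
CPM of Cdh1, Epcam, Cdh2, Vim and Fn1 in each of the 18 biological samples, on log axes that do not start at 0. Points are replicates by number, lines are means of 3, and the dotted line parts the 2 tables, which were scaled separately. Cdh2 lies below WT in both single knockouts and above it in Double KO (7.95 to 23.9 CPM), and Fn1 is higher in quad KO than in Tet TKO.

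Vim (ENSMUSG00000026728.3, chromosome 2) encodes the intermediate filament protein of mesenchymal cells. It was at 116, 113 and 118 CPM in WT and, in Smchd1 KO, at 101, 126 and 71.2 CPM. In Dux KO it was at 55.3, 66.1 and 87.9 CPM, and in Double KO at 143, 116 and 110 CPM. All Dux KO samples lay below all WT and all Double KO samples. The log2 change was -0.75 against WT (95% interval -1.20 to -0.30, adjusted p = 0.0612) and 0.83 in Double KO against Dux KO (0.38 to 1.28, adjusted p = 0.21), so neither passed by limma. Without Dux KO replicate 3, Vim fell by 0.93 in Dux KO against WT (adjusted p = 0.0161), and DESeq2 on the recovered reads also called it (log2 change -0.72, adjusted p = 0.0166). DESeq2 called Vim in Double KO against Dux KO as well (0.84, adjusted p = 0.0237). In the second table Vim was at 209, 216 and 207 CPM in Tet TKO and 168, 143 and 221 CPM in quad KO, a log2 change of -0.27 (95% interval -0.59 to 0.04, adjusted p = 0.15). Quad KO replicates 1 and 2 lay below Tet TKO and replicate 3 above it, and without replicate 3 Vim fell by 0.44 (adjusted p = 0.000209).

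Fn1 (ENSMUSG00000026193.8, chromosome 1) encodes fibronectin, a matrix protein that ES cells and their early derivatives secrete. It was at 369, 370 and 390 CPM in Tet TKO and at 506, 576 and 516 CPM in quad KO, and rose by 0.50 (SE 0.05, 1.41-fold, adjusted p = 0.000469). In the first table it was at 827, 805 and 836 CPM in WT and, in Smchd1 KO, at 711, 852 and 713 CPM. In Dux KO it was at 1080, 1215 and 940 CPM, and in Double KO at 1085, 1272 and 1182 CPM. Every Dux KO and every Double KO sample lay above every WT and Smchd1 KO sample. Fn1 rose in Double KO against Smchd1 KO by 0.64 (SE 0.13, 1.56-fold, adjusted p = 0.0257). That call was lost without any 1 WT sample (adjusted p = 0.0578 to 0.0582), without Smchd1 KO replicate 1 (0.141) and without Smchd1 KO replicate 3 (0.116). Against WT the log2 change was 0.38 in Dux KO (adjusted p = 0.106) and 0.52 in Double KO (adjusted p = 0.0634) by limma, and between Double KO and Dux KO it was 0.13 (95% interval -0.15 to 0.42). DESeq2 called Fn1 higher than WT in Dux KO (adjusted p = 0.0158) and in Double KO (adjusted p = 0.000865), and edgeR in Double KO (adjusted p = 0.0382). In Double KO replicate 3 the median of chromosome 1 was 0.46 above WT and Fn1 0.52 above it, while in replicates 1 and 2 the chromosome was at -0.11 and -0.09 and Fn1 at 0.40 and 0.63. With chromosome medians subtracted, Fn1 was 0.54 higher in Double KO than in Smchd1 KO (adjusted p = 0.0694), and fitted on these 2 genotypes alone the adjusted p was 0.0921 for Fn1 and 0.104 for Cdh2.

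Per kilobase of exon, which allows levels of different genes to be set side by side, Cdh1 had the highest mean of the 8 in every genotype. In WT its mean was 168 CPM per kb, followed by Epcam at 79.5, Fn1 at 70.4, Vim at 24.4, Tagln at 11.5, Acta2 at 6.61, Cnn1 at 1.01 and Cdh2 at 0.874 CPM per kb, and no 2 neighbours in this order overlapped over the 3 samples. In Smchd1 KO the order by mean was the same, with overlap of Vim with Tagln and of Tagln with Acta2. In Dux KO, Fn1 (92.3) and Epcam (83.4 CPM per kb) overlapped, and every gene from Vim down overlapped its neighbour. In Double KO, Fn1 (101 CPM per kb) was above Epcam (75.0) without overlap, and Tagln reached 33.3 CPM per kb and overlapped both Epcam above and Vim (26.0) below it. In Tet TKO the order was Cdh1 (152), Epcam (90.9), Vim (44.4), Fn1 (32.2), Tagln (5.14), Cdh2 (1.34), Cnn1 (1.29) and Acta2 (0.406 CPM per kb), with overlap of Cdh2 and Cnn1 only. In quad KO, Cdh1 (147) and Epcam (125 CPM per kb) overlapped, Fn1 (45.6) came before Vim (37.3 CPM per kb) with overlap, and Cnn1 (3.65), Cdh2 (2.42) and Acta2 (1.57 CPM per kb) overlapped in turn.

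Lists of related genes, none of which holds any of the 8, show how far the wider programmes moved in quad KO against Tet TKO, where 17.1% of all genes were called higher and 20.6% lower. Of 36 epithelial junction and keratin genes, 24 rose and 3 fell, with a median log2 change of 0.45 against -0.01 over all genes tested. Among them Dsc2, a desmosomal cadherin, rose from 5.05 ± 0.391 to 13.9 ± 2.73 CPM (log2 change 1.36, adjusted p = 0.000454), and Cldn7, a tight junction claudin, from 8.66 ± 0.825 to 20.6 ± 4.46 CPM (log2 change 1.18, adjusted p = 0.00109). Ap1m2, an adaptor subunit of epithelial protein sorting, rose by 1.23 (adjusted p = 0.000592), while Dsg2, the desmosomal partner of Dsc2, fell from 57.5 ± 0.554 to 21.5 ± 3.41 CPM (log2 change -1.41, adjusted p = 0.000126). Of 28 mesenchymal and matrix genes, 10 rose and 7 fell (median 0.25). Lox, a collagen crosslinking enzyme, rose by 1.34 and the hyaluronan receptor gene Cd44 by 1.15, and the collagen receptor gene Ddr2 fell by 1.64 (adjusted p = 0.000236 to 0.000852 over these). Of 10 transcription factors that drive the epithelial-to-mesenchymal transition, 7 could be tested: Snai1 rose by 0.50 (adjusted p = 0.01) and Zeb1 fell by 0.37 (adjusted p = 0.0109).

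Of 29 contractile and actin-binding genes, 26 could be tested in quad KO against Tet TKO, and 6 rose and 3 fell (median 0.15). Over all genes tested 37.7% were called in either direction and 17.1% were called higher. The contractile list and the SRF list below were called in either direction at about the share of all genes. The tropomyosin genes Tpm1 and Tpm2 rose by 0.78 and 0.71, Actn1 (alpha-actinin 1) rose by 0.53, and Tagln3, a paralog of Tagln known from neurons, fell by 0.57 (adjusted p = 0.000255 to 0.0211 over these). Without quad KO replicate 3 the counts were 14 higher and 4 lower, in a fit that called 51.2% of all genes (3630 higher and 4008 lower). Of 11 tested genes among SRF, its partners and early targets, 3 rose and 1 fell: Fhl2 rose by 0.91, Myocd, the gene of the SRF partner myocardin, by 0.81 from 0.131 ± 0.0631 to 0.606 ± 0.0981 CPM, and Junb by 0.22, while Fhl1 fell by 1.42 (adjusted p = 0.000923 to 0.0156 over these). Of 15 tested genes of the TGF-beta pathway, which can induce these programmes, 6 rose and 1 fell. The receptor genes Tgfbr2 and Tgfbr3 rose by 0.79 and 0.76 and the repressor Skil by 0.42, and the inhibitory Smad7 fell by 0.36 (adjusted p = 0.000862 to 0.00117 over these). Of the marker lists, the summed level of 7 smooth muscle markers was 55.2 to 58.8 CPM in Tet TKO and 67.8 to 81.6 CPM in quad KO, and that of 10 fibroblast markers 19.5 to 19.8 and 30.7 to 35.1 CPM, with Fap at 0 in all 6 samples. Within the smooth muscle list Smtn was at 32.8 to 36.3 CPM in Tet TKO and 39.1 to 50.1 CPM in quad KO. Des and Synpo2 were also higher without overlap. Myh11 overlapped, at 0.237 to 0.346 and 0.318 to 0.434 CPM, as did Lmod1, at 1.07 to 1.32 and 1.24 to 1.51 CPM. Actg2 overlapped too, at 0.0339 to 0.231 and 0.106 to 0.179 CPM. The sum of 7 trophoblast markers was 64.4 to 66.5 CPM in Tet TKO and 67.9 to 114 CPM in quad KO. Within it Cdx2 was at 7.26 to 8.04 and 17.3 to 29.4 CPM and the keratin gene Krt7 at 7.74 to 8.51 and 12.9 to 21.7 CPM. Gata3 of the same list was lower in quad KO, at 27.2 to 27.6 and 6.96 to 13.7 CPM, and Ascl2 overlapped, at 9.14 to 10.1 and 8.92 to 10.9 CPM. The sum of 8 mesoderm markers was 18.7 to 20.8 and 21.3 to 27.2 CPM. None of these sums overlapped between the genotypes. The sum of 10 extraembryonic endoderm markers did, at 23.3 to 24.2 CPM in Tet TKO and 22.8 to 25.0 CPM in quad KO. Thy1, the highest gene of the fibroblast list, was at 11.6 to 12.2 and 18.5 to 23.8 CPM, and Lum was lower, at 0.0579 to 0.0691 and 0 to 0.0334 CPM. The ES cell sum was 4056 to 4173 CPM in Tet TKO and 3190.2 to 3335 CPM in quad KO. Within it Nanog was at 252 to 276 and 30.8 to 65.0 CPM, Klf4 at 124 to 133 and 30.1 to 47.6 CPM and Zfp42 at 273 to 283 and 81.9 to 137 CPM. Pou5f1 was at 733 to 740 and 694 to 718 CPM, and Dppa5a was higher in quad KO, at 395 to 438 and 480 to 545 CPM. The part of these shifts in the changes of the members and lists was not tested.

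In the first table the same lists gave few calls. Of 36 epithelial genes, Dux KO against WT called 2 higher, the protease St14 (39.6 ± 1.56 to 81.7 ± 16.8 CPM, log2 change 1.01, adjusted p = 0.0351) and the splicing factor Esrp1 (28.4 ± 0.0368 to 56.1 ± 4.26 CPM, 0.97, adjusted p = 0.0304). Double KO against WT called Esrp1 (0.98, adjusted p = 0.0405) and the desmosomal gene Dsp (35.0 ± 0.324 to 97.2 ± 52.0 CPM, 1.32, adjusted p = 0.0496). Of 27 tested mesenchymal and matrix genes, the basement membrane gene Nid1 rose in Dux KO against WT (103 ± 1.58 to 213 ± 7.81 CPM, 1.04, adjusted p = 0.0238), and the proteoglycan gene Vcan rose in Double KO against WT (23.5 ± 1.28 to 89.1 ± 50.8 CPM, 1.72, adjusted p = 0.0496). Of 28 contractile genes, limma called none in Dux KO against WT, with 5 at an unadjusted p under 0.05 and a median of -0.26 against -0.03 over all genes. In that comparison edgeR called 1 higher and DESeq2 2 higher and 1 lower. In Double KO against WT limma called none of the 28, with 4 at an unadjusted p under 0.05 and a median of 0.33 against -0.04, edgeR none and DESeq2 2 higher. Csrp2, an actin-associated LIM protein gene, fell in Double KO against Smchd1 KO (145 ± 14.5 to 84.3 ± 1.71 CPM, -0.77, adjusted p = 0.0209). Without Dux KO replicate 3, 8 of the 28 contractile genes were lower and 1 higher in Dux KO than in WT, with a median of -0.52 against -0.04 over all genes, of which 1301 were higher and 1489 lower of 16200. That replicate was the highest Dux KO sample in 25 of the 28, so leaving it out lowers the group by choice. With all samples of the first table, limma called none of the 8 tested transition factors, 11 genes of the SRF list and 15 of the TGF-beta list in any comparison. In Dux KO against WT, 2, 4 and 4 of these were at an unadjusted p under 0.05, edgeR called 0, 1 and 1, and DESeq2 called 2, 1 and 2. In Double KO against WT the counts were 1, 3 and 7 at an unadjusted p under 0.05, 0 in each list by edgeR, and 0, 2 and 6 by DESeq2. These list counts stand beside the shares of all genes already given for each tool: in Dux KO against WT 26.0% at an unadjusted p under 0.05, 5.76% by edgeR and 16.1% by DESeq2, and in Double KO against WT 23.1%, 3.43% and 12.4%. The 5 of 28 contractile genes at an unadjusted p under 0.05 in Dux KO against WT are a smaller share than that of all genes.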

How the data were processed

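RNA was sequenced from 3 replicates of each of 6 genotypes, WT and Smchd1 KO in 2 technical runs each (24 libraries in all). The submitters' processing notes name Trim Galore, STAR 2.5.1, build mm9 and limma 3.38.2. The read counter, annotation and filters are not given in the sources used here. The authors deposited signal in CPM by gene name, scaled in each of 2 tables on its own. Low values were whole multiples of 1 read in every library (all within 0.1 read below 200 reads), so reads could be recovered for edgeR 4.0.16 and DESeq2 1.42.0. The second table has 3 per-sample columns that match no sample here and were not used. Smchd1 KO columns were joined as runs of 1 replicate by similarity: the noise ratio was 2.02 to 2.61 within pairs and 3.44 to 20.3 between them.

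Runs were averaged. Genes reaching 0.5 CPM in 3 or more samples entered the fit. Their log2(CPM + 0.5) was modelled with limma 3.58.1 (R 4.3.3), a mean for every genotype, a shared spread per table and an intensity trend. Tests were two-sided, with Benjamini-Hochberg adjustment over all genes of a comparison, and no test crossed the tables. Fold changes on this scale understate those of low genes. The steps were tested on simulated data. The text names all 8 members, up to 4 genes past the threshold with the largest change of each related list, and the 2 genes of highest r to each member. Of these, 1 list gene is not reported here. Members and lists were chosen with earlier results of these data known. Chromosomes and exon lengths are from GENCODE M21 (GRCm38), promoters from RefSeq. Counting intervals were not needed, and the spread between samples sets the precision.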

Additional observations from a re-analysis of the deposited data

Results flagged for a closer look

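The Cdh2 samples without Smchd1 lay on opposite sides of their controls in the presence and in the absence of Dux, though neither comparison passed in the main limma fit (adjusted p = 0.346 and 0.178). Fitted by limma on Smchd1 KO and WT alone, Cdh2 passed (-0.66, adjusted p = 0.00109), in a fit that called 42.3% of all genes. A fit of Double KO and Dux KO alone called 0 of all genes. All 3 Smchd1 KO samples (4.17 to 4.50 CPM) lay below all 3 WT samples (6.93 to 7.16 CPM), and all 3 Double KO samples (7.95 to 23.9 CPM) lay above all 3 Dux KO samples (2.88 to 5.37 CPM). Groups did not overlap for 57.7% of all genes in the first of these comparisons and for 6.15% in the second. The difference between the effects was 2.17 on the log2 scale (95% interval 1.14 to 3.20, limma), with an adjusted p of 0.0712, which does not pass. DESeq2 called it (2.51, adjusted p = 0.00043), and edgeR did not. Limma called it without Dux KO replicate 1 (adjusted p = 0.0299) or without Double KO replicate 2 (adjusted p = 0.0159). Double KO replicate 1, the highest for Cdh2, also had the highest summed trophoblast markers of the first table (82.5 CPM over 7 genes, 5.07 to 25.6 CPM in the other samples). Other sums stood apart in that sample too. Its ES cell sum was the lowest of the first table (2598 CPM), and its fibroblast sum the highest (58.4 CPM, beside 58.1 CPM in Smchd1 KO replicate 2). Its endoderm sum was 209 CPM, against 35.8 and 23.1 CPM in Double KO replicates 2 and 3. The part of these markers in the Cdh2 values was not tested.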

How the results depend on the processing

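Of 8 members, the number called was 0 in Smchd1 KO against WT, Dux KO against WT, Double KO against WT, Double KO against Dux KO and the interaction, 2 in Double KO against Smchd1 KO and 6 in quad KO against Tet TKO. Leaving out 1 replicate at a time gave 0 to 0, 0 to 5, 0 to 1, 0 to 2, 0 to 2, 0 to 2 and 5 to 7 in that order. In the same order these fits called 51 to 387, 2 to 2790, 2 to 3006, 0 to 146, 0 to 1203 and 99 to 2428 of 16200 genes, and 3541 to 7638 of 14920. Without Dux KO replicate 3 all genes called in Dux KO against WT went from 644 to 2790. Fitting only the 2 genotypes compared gave 2 members in Smchd1 KO against WT (6852 genes of all instead of 144) and 0 in Double KO against Smchd1 KO (121 instead of 709). DESeq2 gave 2 members in each of Dux KO against WT (2606 genes), Double KO against WT (2008), Double KO against Dux KO (220) and the interaction (946), and edgeR gave 1 in Double KO against WT (555 instead of 255). WT run 1 alone gave 1 in Dux KO against WT (925 of 16200 genes, 5.71%). In Double KO against Smchd1 KO, no filter gave 1 (593 of 28140 genes) and centring each chromosome on its median gave 1 (805 of 16200). The next settings were chosen after seeing the data. Without the 4 samples of the first table that had a chromosome shift beyond 0.3, the members called were 1, 5, 2, 4, 5 and 3 in Smchd1 KO against WT, Dux KO against WT, Double KO against WT, Double KO against Dux KO, Double KO against Smchd1 KO and the interaction (17.0%, 33.8%, 41.7%, 20.8%, 35.8% and 10.4% of all genes), with 1 Dux KO sample left, which is assumed to vary like the other groups. In the second table quad KO replicate 3 had such a shift, and leaving it out gave 7 members (51.2% of all genes). Array quality weights gave 4, 6, 2 and 5 in Smchd1 KO, Dux KO and Double KO against WT and the interaction, and 7 in quad KO against Tet TKO, where the weights did not converge (57.4%, 39.7%, 15.1%, 13.8% and 72.3% of all genes).

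Directions changed as follows, in log2. In Smchd1 KO against WT, Tagln was 0.15 by edgeR, 0.15 by DESeq2, 0.023 with WT run 2 alone, 0.029 with chromosomes centred and -0.44 to 0.31 leaving out 1 replicate; Acta2 was -0.25 without shifted samples, -0.099 with array weights and -0.25 to 0.46 leaving out 1; Cnn1 was 0.000964 by edgeR and -0.32 to 0.19 leaving out 1. In Dux KO against WT, Cdh1 was 0.062 with quantile normalization, 0.14 centred, 0.14 without shifted samples and -0.27 to 0.086 leaving out 1, Epcam was -0.020 with array weights and -0.013 to 0.13 leaving out 1, Tagln was 0.34 by edgeR and 0.32 by DESeq2, and Acta2 was 0.89 by edgeR. In Double KO against WT, Epcam was 0.016 with quantile normalization, 0.14 without shifted samples, 0.014 with array weights and -0.31 to 0.14 leaving out 1, Cdh1 was -0.090 to 0.21 and Vim -0.034 to 0.16. In Double KO against Dux KO, Epcam was 0.096 without shifted samples, 0.034 with array weights and -0.37 to 0.078 leaving out 1, and Cdh1 was -0.030 to 0.34. Acta2 in the interaction was -0.080 by edgeR. In quad KO against Tet TKO, Cdh1 was 0.20 centred, 0.00447 with array weights and -0.096 to 0.015 leaving out 1. The cause of these changes was not tested.

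Same-numbered samples correlated at -0.42 to 0.47 in the first table and -0.03 to 0.02 in the second, so the numbers do not pair the samples, and Smchd1 KO carries none from the labels. With the replicate number as a block the members called stayed at 2 in Double KO against Smchd1 KO (669 of 16200 genes called). They stayed at 6 in quad KO against Tet TKO (4913 of 14920) and at 0 in the other comparisons (2 to 667 of 16200). DESeq2 gave no adjusted p for Acta2 in the first table, and a filter of 2 CPM removed Acta2 from the second. At 4 to 15 reads in 2 Dux KO samples, the size of the Acta2 change is limited by depth.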
